A study of Canis lupus familiaris with 4 samples.

Results

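The ATF4 and unfolded protein response genes are 44 genes listed by symbol, of which 42 were found among the 30951 genes of the table and described here. CREB3L2 and PHGDH were not analysed here under their symbols. All 42 held reads in at least 2 of the 4 libraries, the rule for a detected gene, which 17200 genes of the table met. The genes were listed by pathway and not by their values in the table, though earlier results of these data were known.

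The libraries came from primary mesenchymal stromal cells (MSCs) of canine adipose tissue, with 1 primary cell line and 1 library per dog and 4 dogs in all. MSCs are plastic-adherent cells that secrete large amounts of collagen and other matrix proteins, and the series concerns the antimicrobial activity of their freeze-dried secretions. All 4 cultures were untreated, grown in DMEM with 10% fetal bovine serum and harvested 48 h after seeding, so the labels give 1 group and no contrast between conditions. No genotype, breed, sex or age of the dogs is given in the labels, and dog numbers only name the cultures.

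The unfolded protein response is the signalling system of the endoplasmic reticulum (ER). When unfolded proteins build up there, 3 ER sensors, encoded by ERN1, EIF2AK3 and ATF6, raise the capacity for folding and degradation. EIF2AK3, and EIF2AK4 on amino acid shortage, phosphorylate the initiation factor eIF2alpha, which slows translation in general but favours that of ATF4, so the activity of ATF4 is set largely after transcription. ATF4 induces genes of amino acid synthesis and, with its partners, stress genes such as DDIT3 and TRIB3. Secretory cells use the same system at rest to fold what they export.

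Depth and identity were checked first. The libraries held 7474011 to 22411268 reads assigned to genes, the fewest in dog 4. Of 10 mesenchymal stromal markers 9 were above the median detected gene, with NT5E below, and their summed normalized reads were lowest in dog 4 (1142120 against 1501690 to 1660280 in the other dogs). COL3A1 (657361 against 681142 to 842670) and COL1A1 (376360 against 647793 to 658936) made up most of this sum. PDGFRA, PDGFRB, CD44, VIM and NT5E were also lowest in dog 4, whereas THY1, ITGB1 and ENG were not. No marker of leukocytes (6 measured), endothelium (6), adipocytes (4) or epithelium and mesothelium (3) was above the median detected gene. Their summed normalized reads were 3.69 to 21.7, 108 to 353, 70.4 to 254 and 0 to 15.1. PECAM1, TIE1, CD3E, MS4A1, AIF1, CIDEC and CDH1 had 0 reads in all 4 libraries. Among 7 markers of plasma cells, secretory cells with a strong unfolded protein response, SDC1 alone was above, JCHAIN was neither above nor below, and MZB1, IRF4 and TNFRSF17 were held by no more than 1 library each.

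Values are given on 2 scales. Normalized reads are the reads of a gene divided by the size factor of its library. A level is the deposited log2 value minus that of the median detected gene in the same library, as mean ± SD over 4 dogs. A gene was called above or below when its level lay more than 1 log2 unit from that median (limma, Benjamini-Hochberg adjusted p under 0.05 over all 17200 detected genes). Levels were not corrected for gene length, since transcript lengths were not used here. A call of above or below, and a difference between groups of genes, can therefore also reflect length. Otherwise genes are compared with themselves between dogs and are not ranked against each other.

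Most of the pathway lay above the median detected gene in these untreated cells. Of the 42 members, 37 were above, 0 below and 5 neither, against 33.3% of all tested genes above and 35.8% below. The median level of the members was 3.42, against -0.02 over all tested genes. Together the members held 1.20% ± 0.04 of the assigned reads (SD, n = 4), with 1.22% in dog 1 (95% Wilson interval 1.22 to 1.23, counting error only), 1.22% in dog 2 (1.22 to 1.23), 1.21% in dog 3 (1.21 to 1.22) and 1.13% in dog 4 (1.13 to 1.14). The 5 that were neither were ATF3, DDIT3, PPP1R15A, STC2 and SDF2L1. The reference bears on the count: the median of the 13834 genes with reads in all 4 libraries lay 0.82 log2 units higher, and against it 33 members were above.

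**Figure D1:**
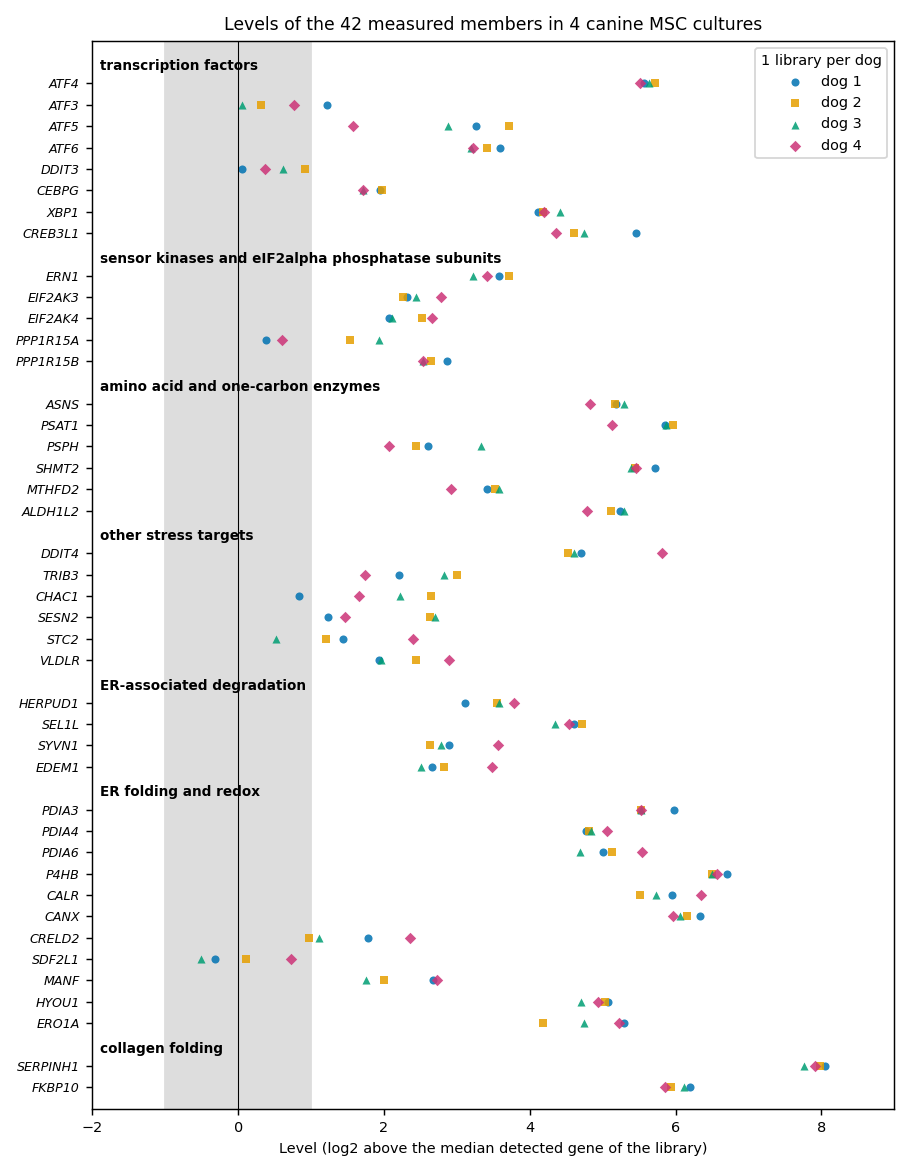
Levels of the 42 measured members (x axis, log2 above the median detected gene of the library) in each of the 4 libraries (1 symbol per dog), grouped by role. The grey band spans 1 log2 unit on each side of the median gene; ATF4 sits between 5.50 and 5.71 in all 4 dogs, whereas ATF5 spreads from 1.58 in dog 4 to 3.72 in dog 2.

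The sensor genes were measured at SDs of 0.19 to 0.29 between dogs. ERN1, which encodes the sensor kinase and RNase IRE1, had 1870, 2092, 1484 and 1661 normalized reads in dogs 1 to 4 and a level of 3.48 ± 0.21. EIF2AK3, the gene of the ER kinase PERK, had 771, 750, 852 and 1067 normalized reads, and EIF2AK4, that of the amino acid sensor GCN2, had 644, 900, 678 and 978. Both kinase genes were highest in dog 4. The third sensor, ATF6, a transcription factor released from the ER membrane by proteolysis, had 1889, 1688, 1455 and 1453 normalized reads. The highest and lowest dogs differed by 1.30-fold for ATF6 and 1.52-fold for EIF2AK4. Each of the 4 passed the test for being above the median gene.

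The regulatory subunits of the phosphatase that reverses eIF2alpha phosphorylation differed from each other in spread. PPP1R15B, the constitutive subunit, was even, with 1130, 986, 915 and 896 normalized reads (level 2.64 ± 0.15). PPP1R15A, the stress-inducible subunit GADD34, had 187, 444, 593 and 221, so dogs 2 and 3 lay above dogs 1 and 4, by 3.17-fold between the extremes. Its level of 1.11 ± 0.74 was neither above nor below (limma, adjusted p = 0.435, n = 4).

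ATF4 was the steadiest transcription factor gene by SD, and ATF5 the most variable, among the 8 measured. ATF4 had 7474, 8432, 8004 and 7183 normalized reads (mean 7773 ± 555, n = 4) and a level of 5.60 ± 0.09 (limma, adjusted p = 4e-09). The extremes differed by 1.17-fold. ATF5, a related factor that is likewise controlled by translation and takes part in the mitochondrial stress response, had 1499, 2098, 1167 and 453 normalized reads, a 4.63-fold range with dog 4 lowest. Dog 4 held 209 reads of it, and the 95% Poisson interval of 394 to 519 normalized reads there, which covers counting error only, ended below that of dog 3 (1102 to 1234). ATF5 had a level of 2.86 ± 0.92 and was above in all of the fits that left out 1 dog.

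The other factors of the ATF4 branch were at low levels or steady. DDIT3, which encodes the pro-apoptotic factor CHOP, had 144, 285, 226 and 184 normalized reads and a level of 0.49 ± 0.37, and was neither above nor below. ATF3, an immediate stress factor, had 349, 180, 147 and 249 normalized reads and a level of 0.59 ± 0.52, also neither. The order of the dogs differed between these genes, with dog 1 lowest for DDIT3 and highest for ATF3. CEBPG, a dimer partner of ATF4, had 588, 614, 510 and 501 normalized reads, and it was the only member whose highest and lowest dogs had overlapping Poisson intervals. Its level was 1.84 ± 0.14.

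XBP1 and CREB3L1 serve the secretory side. XBP1, whose mRNA is spliced by IRE1 into the active form, had 2720, 2898, 3405 and 2882 normalized reads (level 4.22 ± 0.13), and gene-level values do not separate its spliced and unspliced forms. CREB3L1, an ER-bound factor that promotes collagen production, had 6933, 3916, 4300 and 3249 normalized reads, with dog 1 above the other 3, and a level of 4.79 ± 0.47.

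All 6 measured enzymes of serine, glycine, one-carbon and asparagine synthesis passed as above the median, and 5 of the 6 were lowest in dog 4. PSAT1, a transaminase of serine synthesis, had 9182, 10070, 9368 and 5532 normalized reads and a level of 5.70 ± 0.39. Dogs 1 to 3 lay close together, and dog 4 was at 0.58 times their mean. ASNS, asparagine synthetase, had 5740, 5753, 6295 and 4491 normalized reads (5.12 ± 0.20). ALDH1L2, a mitochondrial folate enzyme, had 5963, 5555, 6307 and 4352 (5.11 ± 0.23). In both, dog 4 was again below the other 3.

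MTHFD2, the mitochondrial folate dehydrogenase, showed the same order of dog 4 below the rest, with 1669, 1831, 1901 and 1180 normalized reads. PSPH, the phosphatase that completes serine synthesis, had 941, 852, 1605 and 646, highest in dog 3 and lowest in dog 4. SHMT2, which turns serine into glycine in mitochondria, was the exception: 8324, 6958, 6751 and 6951 normalized reads, lowest in dog 3. Among the 5723 genes above the median detected gene, dog 4 was lowest for 36% and dog 3 for 28.4%. The enzymes held 0.198%, 0.207%, 0.222% and 0.143% of the reads in dogs 1 to 4 (Wilson interval 0.140 to 0.146 in dog 4).

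**Figure D2:**
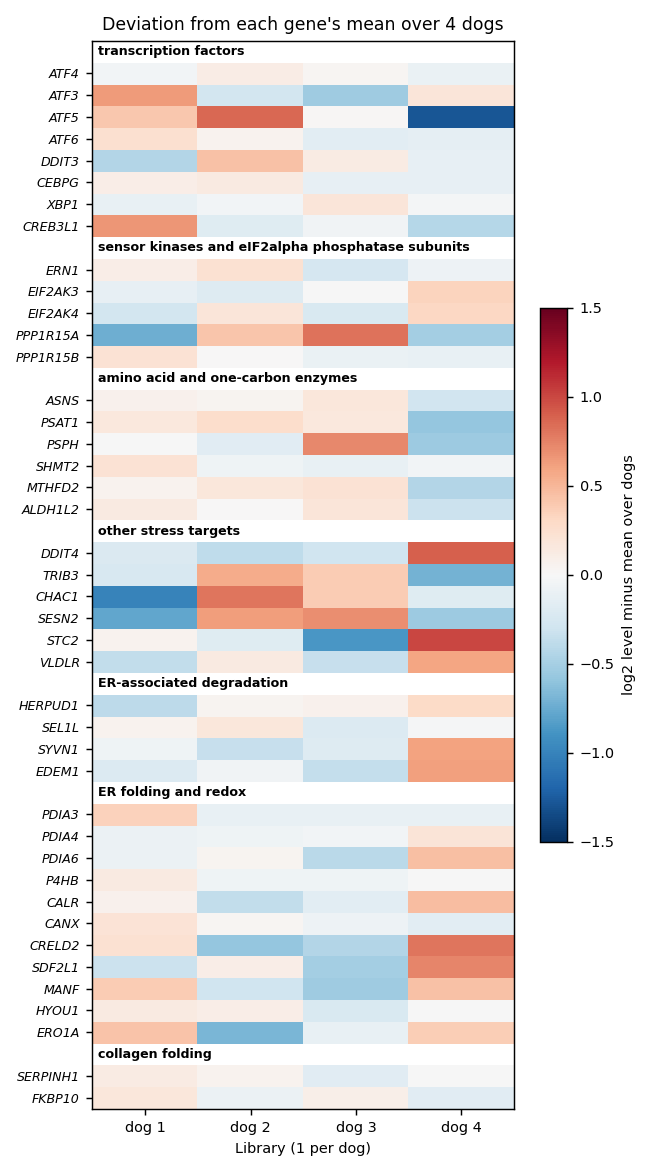
Deviation of each member from its own mean over the 4 dogs (colour, log2 units, red higher and blue lower), with libraries in columns and genes in rows by role. In dog 4 the amino acid enzymes are blue or near white while EDEM1, SYVN1, CRELD2 and SDF2L1 are red.

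The 6 remaining stress targets had the highest median SD of the 7 role groups, 0.68. The test placed 5 of them above the median gene, and STC2 was neither. CHAC1, which degrades glutathione, had 262, 987, 730 and 481 normalized reads (level 1.84 ± 0.78). SESN2, an inhibitor of mTORC1 signalling, had 353, 977, 1031 and 419 (level 2.01 ± 0.77). TRIB3, a pseudokinase that feeds back on ATF4 and CHOP, had 710, 1271, 1124 and 507 (level 2.44 ± 0.58). In all 3 genes dogs 2 and 3 lay above dogs 1 and 4, with no overlap of the 95% Poisson intervals between those pairs. CHAC1 lost its call of above without dog 2 (1.31) or dog 3 (1.54), and SESN2 without dog 2 (1.54). Both also lost it against the median of genes with reads in all 4 libraries, at 1.02 and 1.19.

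DDIT4, STC2 and VLDLR were instead highest in dog 4. DDIT4 encodes REDD1, an mTORC1 inhibitor that is also induced by hypoxia, and it had 4094, 3696, 3912 and 8878 normalized reads, 2.28 times the mean of the other dogs in dog 4. STC2, a secreted stanniocalcin, had 411, 351, 210 and 815 normalized reads. Its level of 1.39 ± 0.78 did not pass the test (limma, adjusted p = 0.11, n = 4) but was above at 1.51 without dog 3, and was 0.82 without dog 4. VLDLR, a lipoprotein receptor that PERK signalling can induce, had 585, 850, 605 and 1160 normalized reads.

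**Figure D3:**
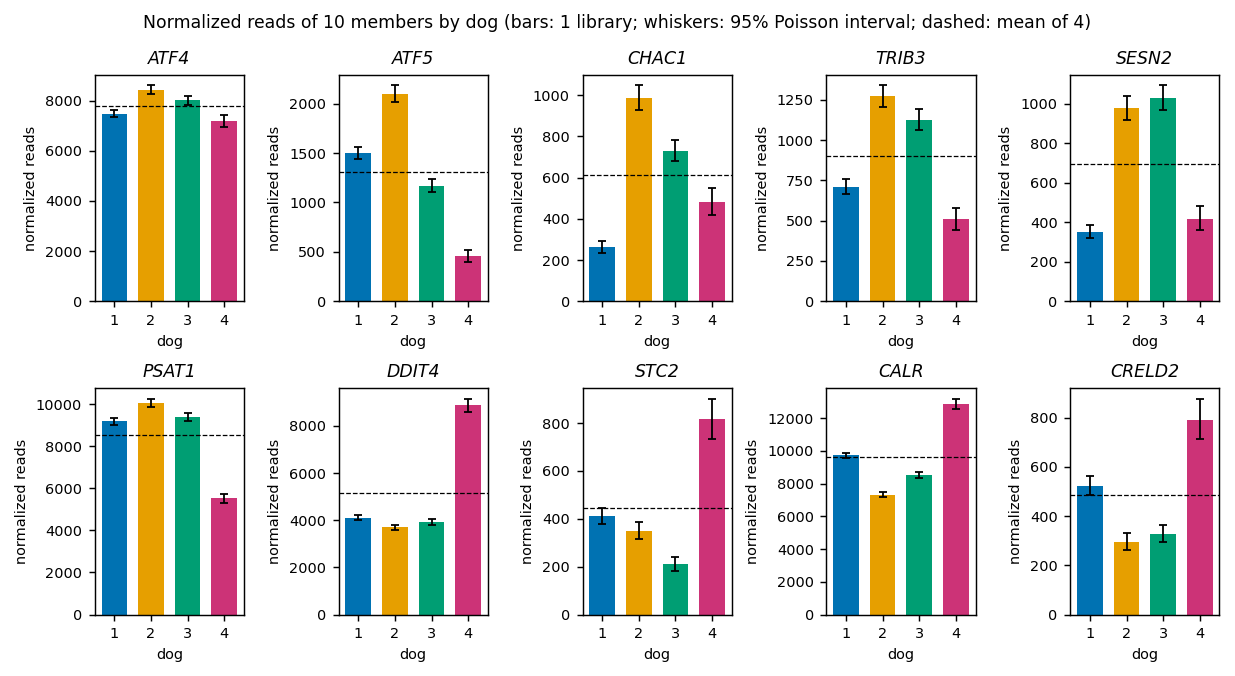
Normalized reads (y axis, from 0) of 10 members in dogs 1 to 4 (1 bar per library), with 95% Poisson intervals as whiskers and the mean of the 4 libraries as a dashed line. ATF4 differs by 1.17-fold between its extremes, CHAC1, TRIB3 and SESN2 are highest in dogs 2 and 3, PSAT1 and ATF5 are lowest in dog 4, and DDIT4, STC2, CALR and CRELD2 are highest in dog 4.

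Genes of ER-associated degradation, which returns misfolded proteins to the cytosol for destruction, all passed as above the median gene. HERPUD1, a scaffold of the complex, had 1353, 1858, 1896 and 2171 normalized reads. EDEM1, which marks glycoproteins for disposal, had 983, 1116, 899 and 1748, and the ubiquitin ligase gene SYVN1 had 1159, 973, 1085 and 1859. Dog 4 was highest for these 3 genes, at 1.75 times the mean of the other dogs for EDEM1 and 1.73 times for SYVN1. SEL1L, the partner of SYVN1, was even by contrast, with 3842, 4227, 3271 and 3652 normalized reads (level 4.55 ± 0.15).

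Of the 11 ER folding and redox genes, 10 passed as above the median and SDF2L1 was neither. Of the 4 protein disulfide isomerases, which form and reshuffle disulfide bonds, P4HB and PDIA4 had SDs of 0.10 and 0.13, and PDIA3 and PDIA6 of 0.23 and 0.36. P4HB, which is also the beta subunit of collagen prolyl 4-hydroxylase, had 16544, 14608, 14619 and 15053 normalized reads (level 6.57 ± 0.10). PDIA4 had 4326, 4499, 4579 and 5265, and PDIA6 had 5064, 5627, 4117 and 7373, both highest in dog 4. PDIA3, which works on glycoproteins, had 9978, 7362, 7377 and 7261, so dog 1 lay above 3 nearly equal libraries.

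The lectin chaperones went different ways in dog 4. Calnexin (CANX), bound to the ER membrane, had 12721, 11516, 10701 and 9887 normalized reads, lowest in dog 4, and its soluble counterpart calreticulin (CALR) had 9733, 7338, 8517 and 12869, highest there. HYOU1, a large ER chaperone and exchange factor, was even, with 5319, 5247, 4186 and 4834 (level 4.94 ± 0.16). ERO1A, the oxidase that recharges the disulfide isomerases and is also induced by hypoxia, had 6167, 2899, 4315 and 5914, with dogs 1 and 4 above dogs 2 and 3.

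Genes of small ER stress-induced proteins had SDs of 0.49 to 0.64 log2 units between dogs. CRELD2, which encodes one of them, had 524, 295, 327 and 792 normalized reads, with dog 4 at 2.07 times the mean of the others. Its level of 1.55 ± 0.64 was above (limma, adjusted p = 0.0231, n = 4), but it lost that call without any 1 of the 4 dogs, at 1.22, 1.49, 1.53 and 1.05 without dogs 1 to 4 in turn, and at 1.35 with all libraries thinned to the shallowest. MANF, a secreted ER stress protein, had 987, 622, 525 and 1034 normalized reads. SDF2L1, a cofactor of the chaperone HSPA5, had 107, 153, 94 and 243 normalized reads from 98 to 166 reads per library, and a level of 0.00 ± 0.55. In dog 4 its 95% Poisson interval was 200 to 292.

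The chaperone genes of collagen had the lowest median SD of the 7 role groups, 0.14. SERPINH1, which encodes the procollagen chaperone HSP47, had 41933, 40754, 34927 and 38296 normalized reads (level 7.93 ± 0.12). FKBP10, a prolyl isomerase for procollagen, had 11653, 9850, 11160 and 9139 (level 6.03 ± 0.16). Their extremes differed by 1.20-fold and 1.28-fold. These 2 genes held 0.320% ± 0.020 of all assigned reads (SD, n = 4).

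The spread between dogs was then set against that of genes of like level. No member passed the test of its variance against the limma trend (0 of 42, smallest Benjamini-Hochberg adjusted p = 0.392, ATF5), and no gene of the table did (0 of 17200, or 0%). At an unadjusted p under 0.05 there were 8 members, 19% of 42, against 5.2% of all tested genes: ATF5, PPP1R15A, DDIT4, TRIB3, CHAC1, SESN2, STC2 and CRELD2. Of these, 5 were among the 6 remaining stress targets and none among the enzymes, the degradation genes or the collagen chaperones. The median SD of the members was 0.33, against a median trend value of 0.27 for the same genes. In 3 members, PDIA3, PSAT1 and DDIT4, 1 library stood apart from the other 3, against 5.36% of all tested genes. With 4 dogs a p that misses the threshold does not show that these genes are equal between cultures.

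**Figure D4:**
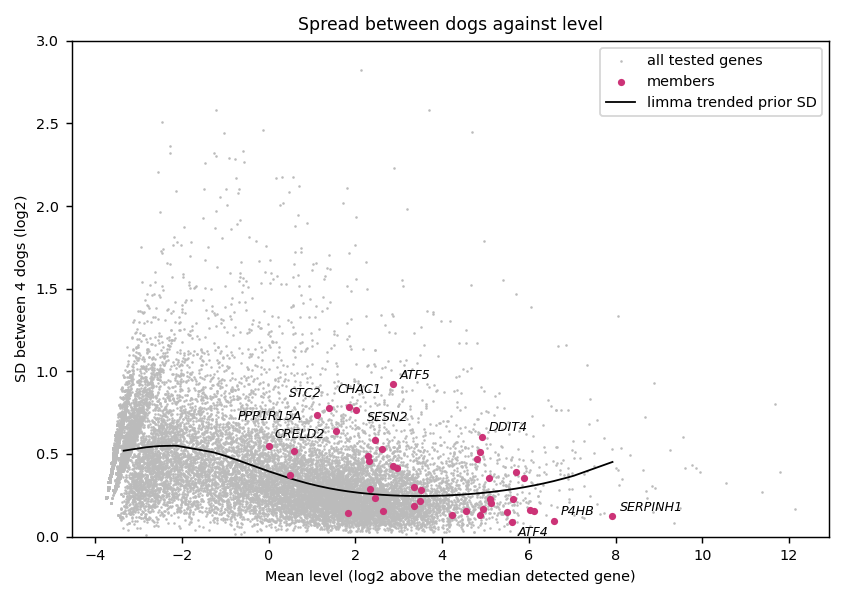
SD between the 4 dogs (y axis, log2) against mean level (x axis, log2 above the median detected gene) for all 17200 tested genes (grey) and the members (coloured), with the limma trended prior SD as a line. ATF5, CHAC1, STC2, SESN2 and PPP1R15A lie well above the line at SDs of 0.74 to 0.92, while ATF4, P4HB and SERPINH1 lie below it at 0.09 to 0.12.

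The deviation of dog 4 was taken for each role group, a look that was not planned in advance and was not tested. Its median deviation from each gene's mean over the dogs was -0.38 log2 units for the amino acid and one-carbon enzymes, 0.36 for the folding and redox genes and 0.44 for the degradation genes, against 0.00 for all genes above the median detected gene. Of the 11 folding genes, dog 4 was highest for 6 and lowest for 2. Dog 1 was highest for the other 5 and lowest for 1, with a median deviation of 0.14, against 0.05 for all genes above the median detected gene. P4HB, HYOU1, PDIA3 and CANX were not raised in dog 4, at -0.002, -0.001, -0.11 and -0.16. The share of reads held by the folding genes was 0.444%, 0.401%, 0.409% and 0.435% in dogs 1 to 4, highest in dog 1. The other stress targets, many of them also ATF4 or CHOP targets, had a median of 0.21 but were split, with 3 of 6 highest in dog 4. DDIT4, STC2 and VLDLR were at 0.90, 1.01 and 0.59. TRIB3, SESN2 and CHAC1 were at -0.71, -0.54 and -0.18, the same sign as the enzymes. Transcription factors were at -0.12, sensors and phosphatase subunits at -0.07 and collagen chaperones at -0.09. Over all 42 members dog 4 was highest for 33.3% and lowest for 35.7%, close to the 32.2% and 36% of genes above the median. The median level of the folding genes minus that of the enzymes was -0.14, -0.11, -0.54 and 0.42 in dogs 1 to 4 (mean -0.09 ± 0.39, no test), and dog 4 alone was positive. The mean was 0.06 without dog 3, -0.26 without dog 4 and -0.22 with group means in place of medians, so its sign is not settled. The folding median fell on HYOU1 in dogs 1 and 2 and on ERO1A in dogs 3 and 4. Gene length can therefore enter differences between dogs in this value too. Dog 4 was also the shallowest library, and markers of several cell types differed there. The summed normalized reads in dog 4 against the range of the other dogs were 1142120 against 1501690 to 1660280 for the stromal markers, a sum made up mostly of COL1A1 and COL3A1. ITGB1 (32755 against 15017 to 21240) and ENG (943 against 725 to 920) were highest there, and THY1 (4563 against 2738 to 7098) was within the range of the other dogs. The sums were 21.7 against 3.69 to 9.55 for leukocyte, 254 against 70.4 to 128 for adipocyte, 2210 against 1899 to 2630 for plasma cell, 108 against 125 to 353 for endothelial and 0 against 2.86 to 15.1 for epithelial and mesothelial markers. JCHAIN, a plasma cell marker, was highest in dog 4 (406 against 119 to 227), and TNFRSF17 had 4 reads there and 0 elsewhere, while MZB1 and IRF4 had 0 in dog 4. Among adipocyte markers, leptin (LEP) had 37 reads there against 0 to 4, LIPE was at 160 normalized reads against 68.2 to 125, PLIN1 was at 13.0 against 0 to 22.0, and CIDEC had 0 in all dogs. The part of these markers in the deviations was not tested. All libraries were also thinned to the depth of dog 4, an alternative chosen after seeing the data. The median deviations of the enzymes, folding and degradation genes in dog 4 were then -0.38, 0.36 and 0.44. The difference of folding genes minus enzymes there was 0.42. This is 1 culture, so it has no replicate check.

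In a wider list of the pathway the 5 groups were mixed in dog 4. Of 29 other measured ATF4 and CHOP targets, 22 passed as above, 2 as below and 5 as neither. Dog 4 was lowest for 17 of them, or 58.6%, against 36% of all genes above the median, and its median deviation was -0.25. Of 26 other ER chaperones and folding enzymes, 21 were above, 2 below and 3 neither, and dog 4 was highest for 14, or 53.8%, against 32.2% of all genes above the median, with a median deviation of 0.19. HSPA5, the master chaperone BiP that holds the sensors inactive, had 11829, 10415, 10866 and 14948 normalized reads, and its relative HSP90B1 had 12247, 11998, 9806 and 15339. DNAJC10, of the same group, had 5397, 4643, 4648 and 5051, highest in dog 1. Among the targets, GARS1, a transfer RNA synthetase, had 9716, 10416, 10313 and 6541, and SLC1A5 had 6302, 6667, 6369 and 4986. VEGFA had 27605, 15552, 16078 and 27466, lowest in dog 2. SLC38A2 had 4904, 7970, 8745 and 8243, lowest in dog 1. These lists come from the same 4 libraries and add no further culture. The counts and deviations of dog 4 in them were also not planned in advance and were not tested.

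**Figure D5:**
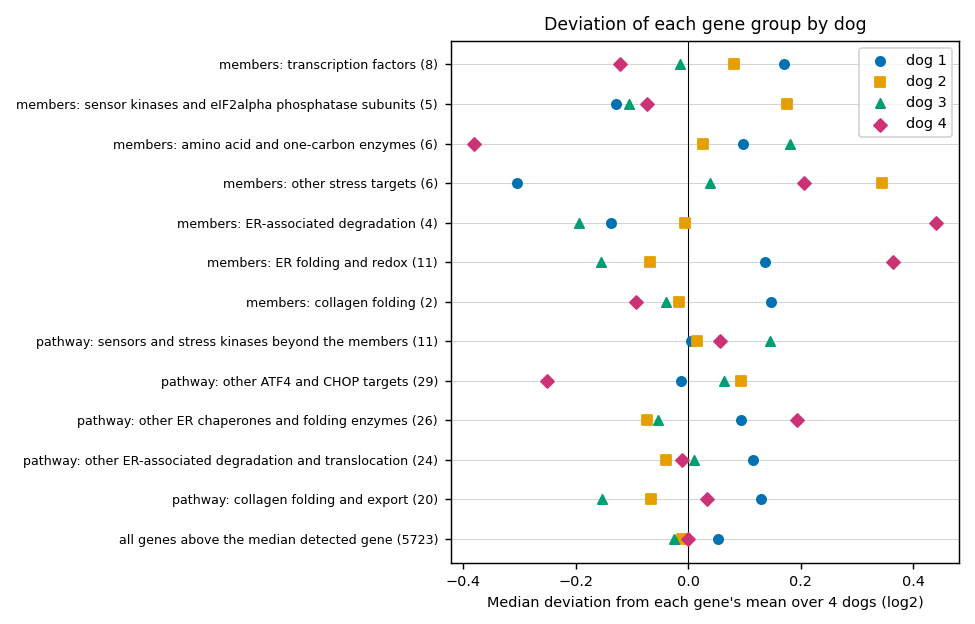
Median deviation from each gene's mean over the 4 dogs (x axis, log2) for each group of members and each group of the wider pathway list, with the number of genes in brackets, by dog. Dog 4 lies at -0.38 for the amino acid enzymes and -0.25 for the other ATF4 and CHOP targets. It lies at 0.36 and 0.44 for the folding and degradation members. The 0.21 for the other stress targets is the median of genes that lie on both sides of 0. All genes above the median lie near 0 in every dog.

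The other 3 groups of the wider list lay near 0 in dog 4, among them the degradation group, whose members lay at 0.44. The sign of values so near 0 is not settled, since that of the sensors and kinases was -0.007 after thinning. Of 11 further sensors and kinases 8 passed as above, 1 as below and 2 as neither, with a dog 4 median deviation of 0.06, and the intestinal IRE1 gene ERN2 was the one below, with 8, 7, 19 and 5 reads in dogs 1 to 4. Of 24 further genes of degradation and translocation 21 were above, 1 below and 2 neither, with a dog 4 median deviation of -0.01. Of 20 genes of collagen folding and export 19 were above and 0 below, with 0.03. The secreted stress hormones FGF21 and GDF15, both ATF4 and CHOP targets, were below the median detected gene, with 4, 10, 0 and 17 reads of FGF21 and 7, 9, 8 and 14 of GDF15. For the 0 reads of FGF21, the depth of dog 3 allows an abundance of up to 0.197 CPM (3 reads, counting error only).

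The members also differed in which 2 dogs were highest. Dogs 2 and 3 were the upper pair for 10 members (23.8%, against 16.7% of all genes above the median detected gene): ATF4, PSAT1, ASNS, PPP1R15A, TRIB3, MTHFD2, CHAC1, SESN2, XBP1 and DDIT3. Dogs 1 and 4 were the upper pair for 9 (21.4%, against 22%): CRELD2, P4HB, MANF, ATF3, SYVN1, ERO1A, CALR, STC2 and DDIT4. The first set holds 3 of the 6 measured enzymes and the second holds none. Neither count adds anything for the 5 enzymes that were lowest in dog 4, since their upper pair could only lie among dogs 1 to 3. Dogs 1 and 2 were the upper pair for 10 members (23.8%, against 17.5%), dogs 1 and 3 for 5 (11.9%, against 17.3%), dogs 2 and 4 for 5 (11.9%, against 14.3%) and dogs 3 and 4 for 3 (7.14%, against 12.2%). These counts were made after the values were seen and were not tested.

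Neighbouring genes may limit some values. All 42 members matched a RefSeq gene by symbol, and the spans of 15 overlap another gene in the RefSeq annotation of the assembly UU_Cfam_GSD_1.0, which is not the build of the files. DDIT3 overlaps MARS1 and MBD6, ATF5 overlaps NUP62 and IL4I1, MTHFD2 overlaps SLC4A5, and PDIA3 overlaps CATSPER2. Spans include introns, and exons were not compared, so how many reads these overlaps concern was not measured. Whether counting used strand is not known from the labels, and reads from shared stretches of such pairs cannot be told apart. In bulk RNA, fewer cells of a type and less RNA per cell cannot be told apart either.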

How the data were processed

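Total RNA libraries of 4 primary cultures were prepared with a stranded kit that removes ribosomal RNA (input 10 ng), per the labels' protocols. FastQC 0.12.1, Trimmomatic 0.39, STAR 2.7.11a, DESeq2 and the build CanFam3.1 are named in the submitters' processing notes. Neither the read counter nor its strandedness nor the annotation version is given in the sources used here. The authors deposited variance-stabilized log2 values (DESeq2's transformation), per the file headers and name. Columns were matched to samples by dog number.

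The closed inverse of the transformation returned whole reads for 100% of values above the value of 0 reads in each library (tolerance 0.01 reads), with size factors of 1.39, 1.08, 1.05 and 0.461 for dogs 1 to 4. Tests used the deposited log2 values, in limma 3.58.1 (R 4.3.3): an intercept fit with a trended prior, a distance of 1 log2 unit and Benjamini-Hochberg adjustment over 17200 detected genes, and an F test of each variance against the trend. Replicates are separate dogs, so error includes differences between cultures and libraries. Both tests were tried on simulated data. The level test called 100% of genes at true levels of -2.5, 2 and 3, and 0% at 0.5. The variance test called 56% of genes at an SD of 1.5 and 88% at 2.5. The highest SD of a member was 0.92 (ATF5), and spreads of that size were not simulated. Summaries used Python 3.11.15, numpy 2.4.6, pandas 2.3.3 and scipy 1.17.1.

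The members and lists were chosen with earlier results of these data known. Named genes were all measured members and, of each group of the wider list, the 4 highest and 2 lowest by level, of which the text gives those a result turns on. Alternatives covered the reference set, distance, normalization, scale, filter, prior, depth and leaving out each dog. Levels per coding length were not computed, since no transcript lengths were used here.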

Additional observations from a re-analysis of the deposited data

Results flagged for a closer look

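In 3 of the 42 members 1 library stood apart, with a gap to the nearest other dog that, divided by the range of the 4 levels, exceeded Dixon's 95% critical value. Chance flags about 1 in 20 groups, and 5.36% of all tested genes exceeded it. The ratio was 0.995 for PDIA3, in which dog 1 was high at 9978 normalized reads against 7261 to 7377. For PSAT1 it was 0.869, with dog 4 low at 5532 against 9182 to 10070. For DDIT4 it was 0.867, with dog 4 high at 8878 against 3696 to 4094. Dog 4 was the shallowest library, and its 95% Poisson intervals, for counting error only, were 5320 to 5751 normalized reads for PSAT1 and 8609 to 9155 for DDIT4.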

How the results depend on the processing

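Across the alternatives run, 30 to 39 members were above the median detected gene (30 at a distance of 2) and 0 below. Without 1 dog, 34 to 36 members, 84 to 89 of the wider list and 4887 to 5230 of all genes were above, and 0, 6 to 7 and 5304 to 5749 were below. At a distance of 2, 2 genes of the wider list were below in place of 6, and 3289 of all genes were above in place of 5723. Against the median of genes with reads in all 4 libraries 3729 were above. When only those genes were tested 2830 of all genes were below in place of 6163, and with no filter 19520, since fewer or more low genes were then tested. The share of reads held by the members was 1.52% when the 10 most abundant genes were left out of the total, and 1.19% to 1.22% without 1 dog. The median difference between folding genes and enzymes ranged from -0.26 to 0.06 without 1 dog, the lowest without dog 4 and the highest without dog 3, and was -0.22 with group means. Of 336 level values of single members under alternatives, 323 kept direction and call, 12 lost the call (CEBPG, CHAC1, SESN2 and CRELD2) and 1 gained it (STC2), and none changed direction after being called. No member passed the variance test under any alternative. Thinning did not change how many enzymes were lowest in dog 4 (5) or folding members highest (6); quantile normalization, added after seeing the data, gave 6 and 7. Levels per coding length were not run, for want of transcript lengths. No paired analysis was possible because the labels give 1 group. In dog 4, 209 reads of ATF5 and 85 of DDIT3 limit precision.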
